A study of Rattus norvegicus with 11 samples.

Results

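The messages of neuropeptide Y and of 3 of its receptors were measured in medial prefrontal cortex from rats that had taken heroin and from yoked saline controls. The genes are Npy, which encodes the peptide, and Npy1r, Npy2r and Npy5r, which encode the Y1, Y2 and Y5 receptors. They were found by the gene name printed for each non-control probe of the array, and 5 of the 41012 probe sequences carried such a name. Npy1r had 2 probes and each other gene had 1, and no further probe carried a sequence accession of these genes under another name. Npy was spotted 10 times on each array and the other probes once.

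Neuropeptide Y is a peptide transmitter that cortical interneurons release, often together with somatostatin, and it is best known for its part in feeding, stress and the damping of neuronal excitability. It is cut from a larger precursor by prohormone convertases and given its active amide end by a further enzyme. Its receptors couple to inhibitory G proteins, which lower cyclic AMP and open inwardly rectifying potassium channels. Y1 and Y5 act mainly on the receiving cell, while Y2 is a presynaptic receptor that limits the release of the peptide itself.

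The heroin group held 6 male rats of 4 months that had licked a spout for intravenous heroin in daily sessions. The saline group held 5 male rats of the same age, each yoked to a heroin rat and given saline, but no heroin, at that rat's infusions. Every rat in both groups then spent 14 days in drug-free home-cage abstinence and was killed directly after a session in the drug chamber in which no drug was given, so both groups share the abstinence, the return to the chamber and the surgery. A block of medial prefrontal cortex per rat was hybridised to 1 single-colour array, so that n counts rats. The strain is not given in the sample records used here, and a saline replicate 1 was not analysed here.

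Signals are given as multiples of the median signal of all non-control probes on the same array, called array medians below, after signals under 5 had been raised to 5. The medians ran from 42.7 to 78.3 in the heroin group, with the lowest in heroin replicate 6, and from 58.0 to 83.2 in the saline group. Heroin arrays had a wider spread of bright over middling signals, with a 75th percentile 5.32 to 6.36 times the median against 4.47 to 6.07 times in saline. The median change over all probes depended on the scaling. The median log2 change over the 25555 tested probes was 0.18 with division by the array median, −0.03 with division by the 75th percentile and 0.01 after quantile normalization. For 5 replicate numbers, the heroin and the saline array of that number shared a scan time, which is taken here as a shared slide. The rats on a slide are not known to be the yoked pairs. Saline arrays were always at position 3 and heroin arrays at position 4, so array position and group cannot be told apart. Excitatory cortical markers were detected on all arrays, among them Slc17a7, the glutamate transporter of cortical neurons.

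The stretches below come from the probes that read each message. Each is written 5′ to 3′ as the array files give it, and positions are those of the whole 60-nucleotide probe in build rn3. Capitals mark a poly(A) signal, AATAAA, which is found near the end of messages.
Npy, chr4:78321255-78321314, plus strand, bases 31 to 60: tatatgtgtgtttaAATAAAgtatcatgca
Npy1r, main probe, chr16:24747552-24747611, minus strand, bases 1 to 30: tgagagcatttctaactcatactgcataga
Npy1r, second probe, chr16:24748867-24748926, minus strand, bases 1 to 60: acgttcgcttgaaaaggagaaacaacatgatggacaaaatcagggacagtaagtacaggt
Npy2r, chr2:150505979-150506038, plus strand, bases 1 to 60: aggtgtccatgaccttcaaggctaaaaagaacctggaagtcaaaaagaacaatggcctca
Npy5r, chr16:24773050-24773109, plus strand, bases 1 to 30: agtagatagctgatttatgttgtacctatg
The main Npy1r probe and the Npy5r probe were stopped in all 3 reading frames, whereas the Npy probe, the second Npy1r probe and the Npy2r probe each had 1 frame open over all 60 bases. The files did not annotate exons or untranslated regions. The 2 Npy1r probes lay 1255 bases apart, and the Npy5r probe lay 25438 bases from the main Npy1r probe on the opposite strand of chromosome 16.

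On these arrays, with division by the array median, the Npy message showed no difference between the groups beyond the spread between rats. In the saline rats its signal was 70.4 array medians in replicate 2, 74.8 in replicate 3, 91.2 in replicate 4, 120 in replicate 5 and 77.3 in replicate 6. In the heroin rats it ran from 70.1 in replicate 4 to 109 in replicate 6, with a median of 92.4. The highest saline rat stood above every heroin rat and the lowest heroin rat was level with the lowest saline rat, so the groups overlapped over nearly their whole range. The means were 91.6 ± 13.6 (SD, n = 6) for heroin and 86.7 ± 20.1 (SD, n = 5) for saline. The log2 change was 0.09 (SE 0.16), with an unadjusted limma p of 0.568 and an adjusted p of 0.714. An exact permutation test over the 462 divisions of the rats gave p = 0.571. The paper measured Npy by quantitative PCR too, with beta-actin as the reference, on RNA that included these samples. It reported a significantly lower Npy level in heroin than in yoked saline rats after 14 days of abstinence. That decrease is not seen in the array values above.

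The spread between rats was larger than that between the 10 spots of Npy on 1 array. Within an array the log2 signals of the spots had an SD between 0.035 and 0.070, with 2 of 110 spots left out as marked by the scanner software. Between rats the SD of log2 signal, with division by the array median, was 0.22 in the heroin group and 0.31 in the saline group. At the 75th percentile it was 0.28 in heroin and 0.14 in saline. Each rat had 1 array, so this spread also holds differences between arrays, which cannot be told apart from those between rats. Every array held Npy far above background, from 234 to 522 times the lowest signal detected on it.

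The direction of the Npy difference turned with the scaling. Under 8 ways of making the arrays comparable, the log2 change lay above 0 in the 2 that divide by the 50th percentile and below 0 in the other 6, from −0.17 to 0.09. It was −0.12 (adjusted limma p of 0.873) at the 75th percentile, −0.16 (adjusted limma p of 0.803) after quantile normalization and −0.14 relative to Actb, the cytoskeletal actin gene. Set against the median change of all tested probes, Npy was lower in 8 of the 8 settings, with differences from −0.18 to −0.04 on the log2 scale. The settings that differ only by a constant per array (50th and 75th percentile, median of detected probes, Actb) gave the same −0.09. They therefore count as 1 check. On the 5 slides inferred from scan times, the heroin rat was above its saline neighbour in 3 by division with the median and in 0 after quantile normalization, where the differences ran from −0.51 to −0.0047. None of these Npy values passed a threshold of the test.

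Npy1r, the Y1 receptor gene, was higher on average in the heroin group at its main probe, within the spread between rats. Saline values were 7.29 array medians in replicate 2, 5.89 in replicate 3, 8.0 in replicate 4, 10.8 in replicate 5 and 8.65 in replicate 6. Heroin values ran from 5.64 in replicate 6 to 12.1 in replicate 2, with a median of 10.5. In all 5 other heroin rats the signal was at least 9.73, while heroin replicate 6 lay below every saline rat. The means were 10.1 ± 2.35 (SD, n = 6) and 8.12 ± 1.80 (SD, n = 5). The log2 change was 0.29 (SE 0.20), with an unadjusted limma p of 0.164, an adjusted p of 0.371 and an exact permutation p of 0.227.

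The size of the Npy1r difference moved with heroin replicate 6 and with the scaling. Without that rat the log2 change was 0.45 with an unadjusted limma p of 0.0106 (adjusted p = 0.205), below the 1.4-fold threshold. When limma weighted arrays by how well they followed the rest, the change was 0.54 with an unadjusted p of 0.00264 (adjusted p = 0.0238) and passed both thresholds, in a fit in which 6.72% of tested probes rose past both. In that fit 7862 of the 25555 tested probes had an adjusted p under 0.05, so the adjusted p of Npy1r was not particular to this gene. With the other scalings the change stayed above 0 and fell to between 0.04 and 0.23. On the slides, Npy1r was higher in the heroin rat in 4 of 5 under both scalings, and the slide of heroin replicate 6 was the exception.

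The second Npy1r probe, which had an open reading frame, did not show the difference. Its signal was 2.15 array medians in saline replicate 2, 1.30 in replicate 3, 1.17 in replicate 4, 1.14 in replicate 5 and 1.57 in replicate 6. In the heroin rats it ran from 1.14 to 1.74 with a median of 1.31, inside the saline range. The log2 change was −0.07 with division by the median and −0.16 after quantile normalization. Its signal was 3.68 to 7.82 times the detection limit of the array, and that of the main probe 18.2 to 50.5 times. Averaged over both probes, the log2 change of Npy1r was 0.11 (adjusted p = 0.652).

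Npy2r, the presynaptic Y2 receptor gene, was well above background on 10 of 11 arrays and so was not part of the main test. The array without detection was heroin replicate 6, where the signal was 1.02 times the lowest signal detected. Saline values were 0.927 array medians in replicate 2, 0.834 in replicate 3, 0.635 in replicate 4, 0.517 in replicate 5 and 1.13 in replicate 6. Heroin values ran from 0.317 in replicate 6 to 0.911 in replicate 2, with a median of 0.516. In 3 heroin rats, replicates 4, 5 and 6, the signal lay below every saline rat, and in the other 3 within the saline range. The means were 0.555 ± 0.220 (SD, n = 6) and 0.808 ± 0.240 (SD, n = 5), a log2 difference of −0.58.

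Over the 40980 probes fitted with no detection filter, the Npy2r difference had an SE of 0.28, an unadjusted limma p of 0.0599 and an adjusted p of 0.367. The exact permutation p was 0.0996. In that fit 2.65% of probes fell past both thresholds, and Npy2r did not. The log2 difference was below 0 under all 8 ways of making arrays comparable, from −0.81 to −0.25. It passed both thresholds only relative to Actb (−0.81, unadjusted limma p of 0.0115, adjusted p = 0.281). Without heroin replicate 2 it also did so (−0.74, unadjusted limma p of 0.0142, adjusted p = 0.367). On the slides the heroin rat was lower in 5 of 5 with division by the median, with log2 differences from −1.83 to −0.02, and in 4 of 5 after quantile normalization. The software's own error of this spot was 10.7% to 23.6% of the signal, against 10.1% to 10.6% for Npy5r.

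Npy5r, the Y5 receptor gene, was the 1 gene of the 4 that passed both thresholds of the study, which ask for an unadjusted p under 0.02 and at least 1.4-fold between the groups. Saline values were 1.55 array medians in replicate 2, 1.92 in replicate 3, 2.44 in replicate 4, 2.58 in replicate 5 and 2.34 in replicate 6. Heroin values ran from 2.71 in replicate 5 to 4.92 in replicate 6, with a median of 2.93. The lowest heroin rat exceeded the highest saline rat, and 5 of the 6 heroin rats lay close together, between 2.71 and 3.04. The means were 3.22 ± 0.839 (SD, n = 6) and 2.17 ± 0.423 (SD, n = 5).

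The log2 change of Npy5r was 0.56 (SE 0.18), or 1.48-fold, with an unadjusted limma p of 0.0065 and an adjusted p of 0.263. The exact permutation test gave p = 0.00216, the smallest that 462 divisions allow. Of all tested probes, 2.72% passed both thresholds in either direction, 1.79% as higher in heroin, and 1.66% had every heroin array above every saline array. No probe of the 25555 reached an adjusted limma p under 0.05, and 4723 had an unadjusted p under 0.05. The study listed this probe on the same arrays, so its direction and rank here are not independent evidence. The paper also measured Npy5r by quantitative PCR, on RNA that included these samples, and reported that the increase was not reproduced.

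**Figure D1:**
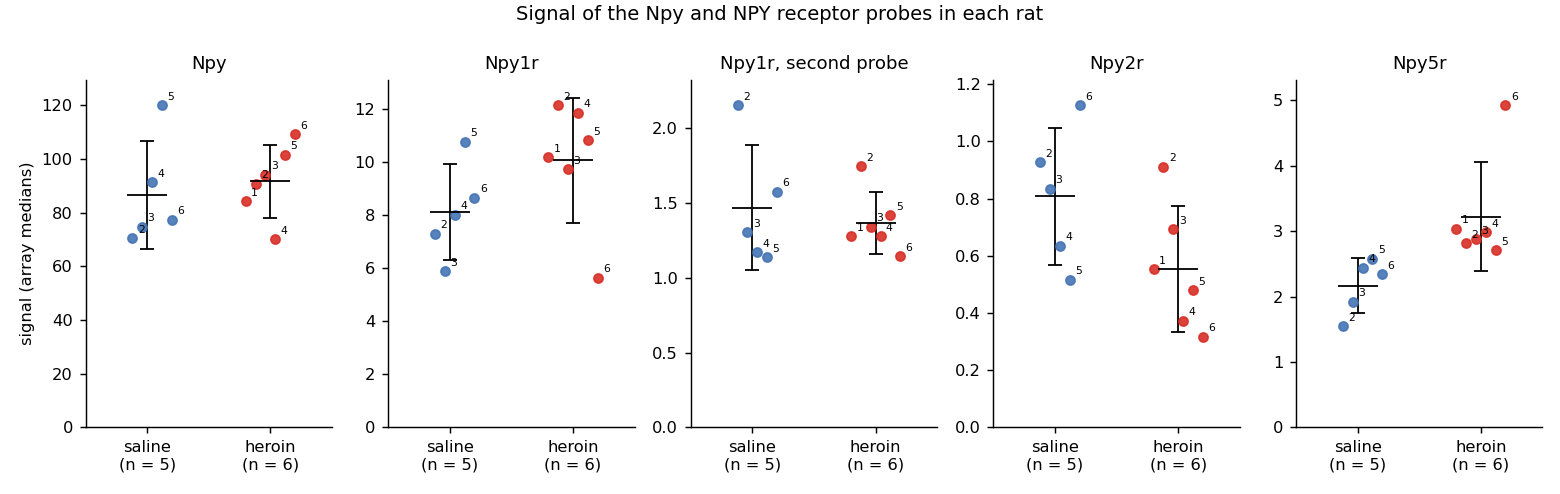
Signal of each Npy, Npy1r, Npy2r and Npy5r probe in array medians (linear axis from 0) in 5 saline and 6 heroin rats, each point 1 rat with its replicate number, with the mean and SD of the group. The groups overlap for Npy, both Npy1r probes and Npy2r, and for Npy5r the heroin rats (2.71 to 4.92) lie above the saline rats (1.55 to 2.58).

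Before any scaling, Npy5r overlapped between the groups. The unscaled intensity ran from 180 to 220 in the heroin rats and from 106 to 195 in the saline rats. Heroin replicate 6 had an unscaled intensity of 210, between those of the other heroin rats, on the array with the lowest median of all 11. Divided by that median of 42.7, it became the highest scaled value of the group. Npy on that array had 4663 units of intensity, near the lower end of the heroin range of 4242 to 7949.

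**Figure D2:**
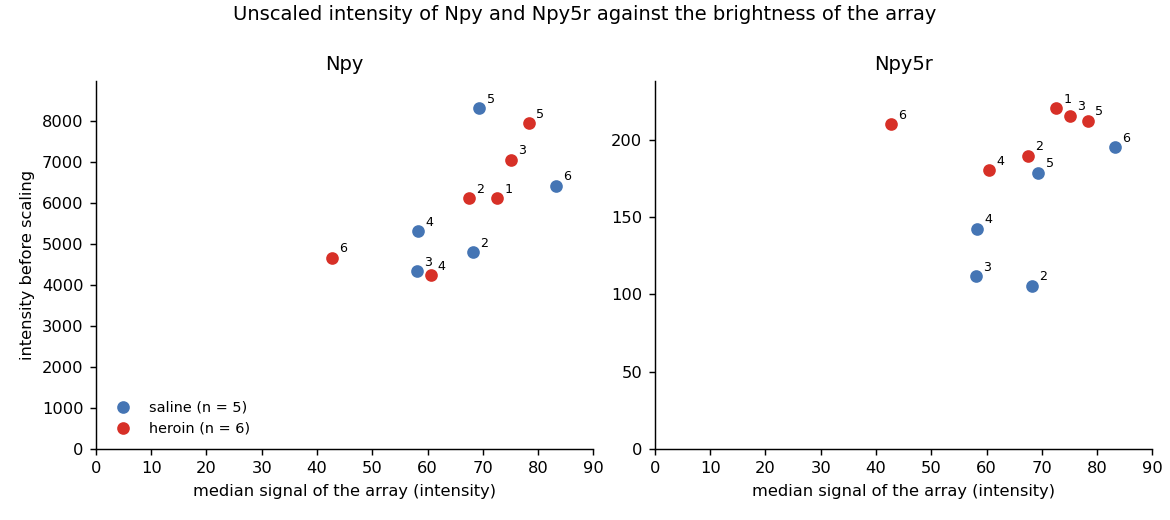
Intensity before scaling (vertical axis, from 0) of Npy and Npy5r against the median signal of the same array (horizontal axis, intensity, from 0), 1 point per rat with its replicate number. For Npy5r the heroin rats lie between 180 and 220 and the saline rats between 106 and 195, and heroin replicate 6 lies far to the left, at an array median of 42.7.

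The Npy5r difference kept its direction and lost its call under the other scalings. After quantile normalization the log2 change was 0.42 (unadjusted limma p of 0.0249, adjusted p = 0.615), 5 of 6 heroin rats lay above every saline rat, and the exact permutation p was 0.00866. In that scaling 0.853% of all probes rose past both thresholds. At the 75th percentile the change was 0.35 (unadjusted limma p of 0.0522, exact permutation p = 0.0303), where 0.129% of all probes rose past both. Relative to Actb it was 0.33 (unadjusted limma p of 0.203), and with normexp background correction it was 0.38 at the 50th percentile and 0.29 after quantile normalization. Relative to the median change of all tested probes, Npy5r was higher in 8 of 8 settings, by 0.26 to 0.41 on the log2 scale. Settings that differ only by a constant per array (50th and 75th percentile, median of detected probes, Actb) gave the same 0.38. The 8 settings are therefore not separate checks.

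Single rats also carried part of the Npy5r call. Without heroin replicate 6 the log2 change was 0.43 (unadjusted limma p of 0.00922), just under the fold threshold. Without saline replicate 2, the lowest rat of its group, it was 0.45 (unadjusted limma p of 0.0223). Leaving out any of the other 9 rats kept both thresholds passed. On the slides Npy5r was higher in the heroin rat in 5 of 5, by 0.07 to 1.07 on the log2 scale with division by the median and by 0.15 to 0.79 after quantile normalization. With division by the median the 5 of 5 was bound to follow, since every heroin rat stood above every saline rat.

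**Figure D3:**
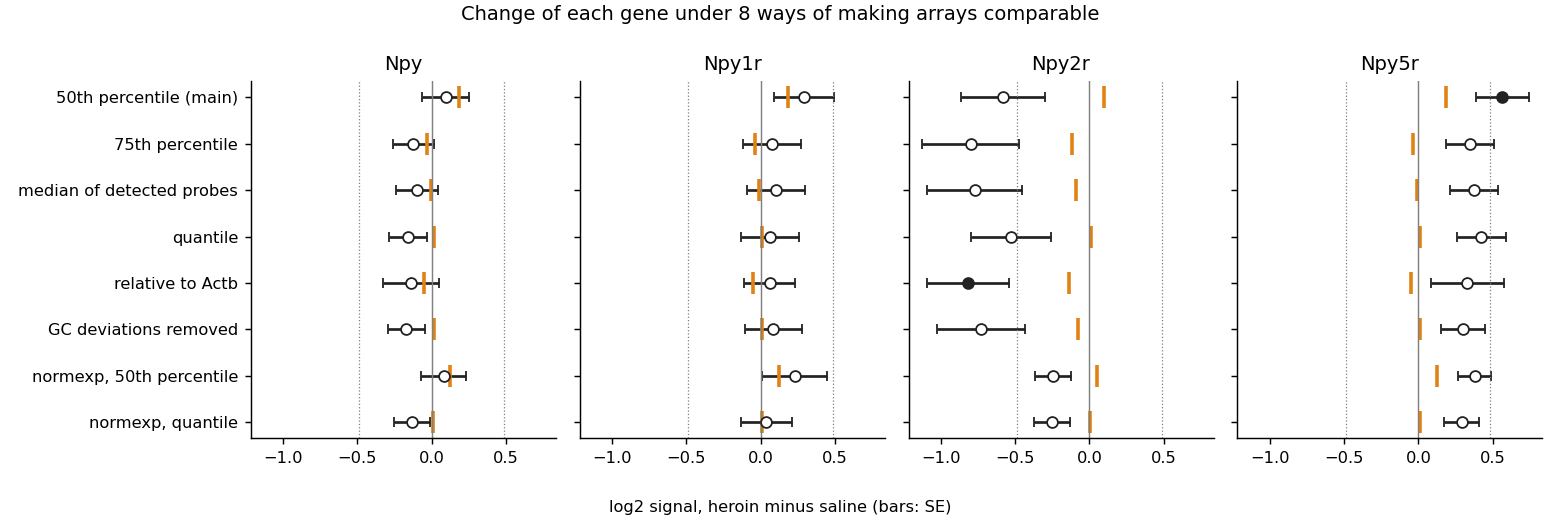
Log2 change, heroin minus saline, of the 4 genes (horizontal axis, bars are SE) under 8 ways of making the arrays comparable (vertical axis), with filled points past both thresholds, dotted lines at 1.4-fold and orange ticks at the median change of all probes of the fit. Npy lies on either side of 0, Npy2r lies below 0 and Npy1r (main probe) and Npy5r above 0 in each setting, and Npy5r is past both thresholds only in the main one.

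A difference between 2 genes on the same array does not depend on any constant scaling of that array, and 6 such pairs were compared with exact permutation tests. Only the change of a pair between groups is read, since the level of a probe cannot be set against that of another. Npy minus Npy5r was 5.51, 5.28, 5.22, 5.54 and 5.04 on the log2 scale in saline replicates 2 to 6. In the heroin rats it ran from 4.47 in replicate 6 to 5.23 in replicate 5, with 5 of the 6 below the lowest saline rat. Npy fell relative to Npy5r by 0.47 in the heroin group (exact permutation p = 0.013, adjusted over the 6 pairs p = 0.0779). Leaving out each rat gave −0.55 to −0.39 with exact permutation p between 0.00794 and 0.0381. With normexp background correction it was −0.30 (exact permutation p = 0.0866).

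Npy2r minus Npy5r changed by −1.14 between the groups (exact permutation p = 0.0325, adjusted p = 0.0822). Its lowest value, −3.96, came from heroin replicate 6, where Npy2r was not well above background, and without that rat the change was −0.87 (exact permutation p = 0.0556). Npy1r minus Npy2r changed by 0.88 (exact permutation p = 0.0411, adjusted p = 0.0822), with heroin values from 3.73 to 4.99 and saline values from 2.82 to 4.38, and without the same rat it was 0.89 (exact permutation p = 0.0556). The pairs with Npy5r are not independent of the choice of that gene by the study, and all 6 pairs overlapped between the groups. Npy minus Npy1r (−0.20, exact permutation p = 0.506), Npy minus Npy2r (0.67, p = 0.134) and Npy1r minus Npy5r (−0.27, p = 0.636) did not pass. In Npy1r minus Npy5r, heroin replicate 6 was at 0.20 and the other heroin rats between 1.74 and 2.11, and without that rat the difference between groups was 0.02.

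**Figure D4:**
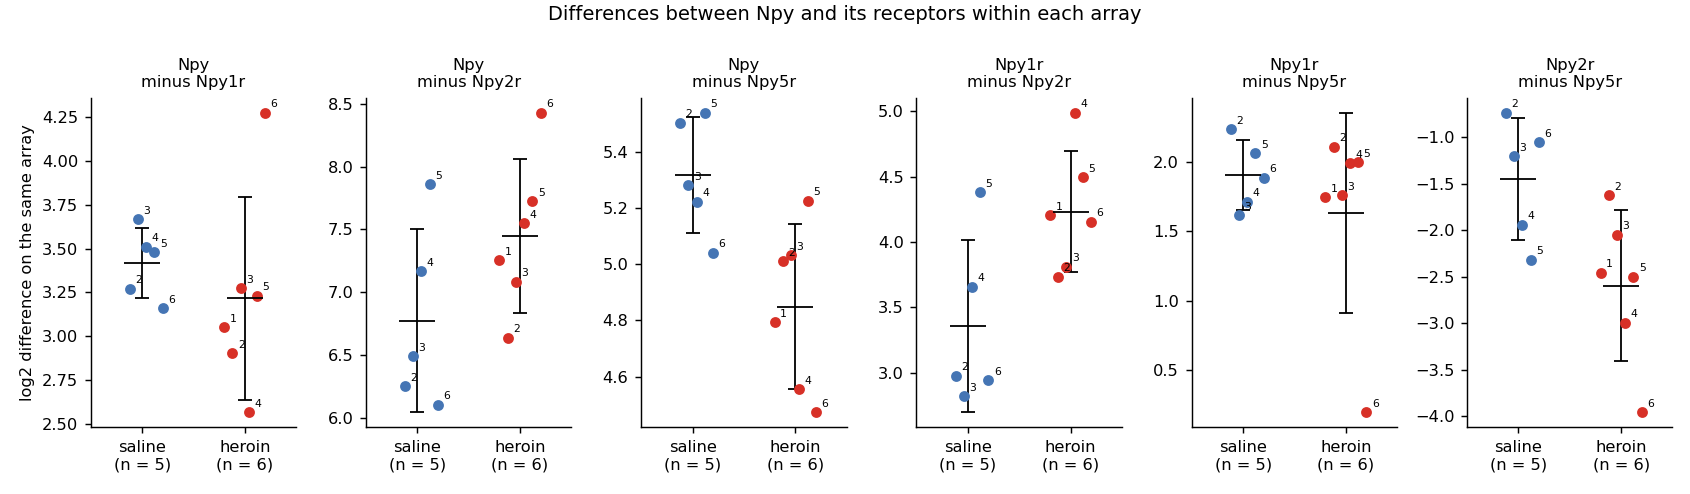
Log2 difference between 2 genes on the same array (vertical axes do not start at 0) for the 6 pairs of Npy, Npy1r, Npy2r and Npy5r, each point 1 rat with its replicate number, with the group mean and SD. Npy minus Npy5r lies lower in heroin (4.47 to 5.23) than in saline (5.04 to 5.54) with overlap, and heroin replicate 6 stands apart in Npy1r minus Npy5r.

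The 4 genes did not vary together from rat to rat in a way that held over 7 relations tested after quantile normalization in 11 rats. The largest was between Npy2r and Npy5r, with Pearson's r of −0.61 (permutation p = 0.0384, adjusted p = 0.269) and Spearman's rho of −0.49 (permutation p = 0.129, adjusted p = 0.903). Without the 2 rats farthest from the median of Npy2r, r was −0.58, and on deviations from the group means it was −0.43. Npy1r and Npy5r, neighbours on chromosome 16, had an r of −0.33 (permutation p = 0.299, adjusted p = 0.737) and a rho of 0.27 (permutation p = 0.419, adjusted p = 0.989). Their r turned to 0.40 without the 2 rats farthest from the median of Npy1r. Npy and Sst, the somatostatin gene of the same interneurons, had an r of 0.27 (permutation p = 0.421, adjusted p = 0.737) and a rho of 0.20 (permutation p = 0.557, adjusted p = 0.989), and r was 0.11 without 2 rats.

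The probes most like each gene over the 11 arrays were named by Pearson's r, as a description over arrays of both groups. They were Timm23 (r = 0.94) and Mtrex (0.84) for Npy. For Npy1r they were Rpap2 (0.97), Skp1 (0.95) and Cdh8 (0.95). For Npy2r the closest were Rpusd4 (0.94), Exoc6 (0.94) and Map3k11 (0.92), and for Npy5r they were Cbfb (0.96), Hnrnpf (0.94) and Orc4 (0.94). About 9048 probes with a gene symbol were compared with each gene.

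Of the related peptides, Pyy, the gut peptide YY gene, had a log2 change of 0.28 (adjusted p = 0.406) and Ppy, pancreatic polypeptide, −0.22 (adjusted p = 0.380), and neither passed. Npy4r, the receptor for pancreatic polypeptide, was detected on 4 of 11 arrays and not tested, and Npy6r was not found on the array by name. Pyy and Ppy were below the array median in both groups, with mean signals of 0.525 to 0.890 array medians.

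Of the enzymes that make and break down the peptide, 8 of 9 were tested and 0 passed both thresholds, against 2.72% of all probes. Their median log2 change was 0.35 beside 0.18 for all tested probes, and 0.11 beside 0.01 after quantile normalization. Pcsk2, a prohormone convertase, had the largest change (0.47, SE 0.13, unadjusted limma p of 0.00209, adjusted p = 0.263), which stayed under 1.4-fold, and after quantile normalization it was 0.23. Dpp4, which trims neuropeptide Y to a form that spares Y1, was at 0.41 (adjusted p = 0.263), and Scg5, a chaperone of Pcsk2, at 0.37 (adjusted p = 0.267). By unadjusted p alone Pcsk2 was the 1 enzyme under 0.02.

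Of the genes through which Y receptors signal, 16 of 18 were tested. As higher in heroin, 1 of the 16 passed both thresholds, beside 1.79% of all probes. It was Gnai1, an inhibitory G-protein alpha subunit. Its signal ran from 2.66 to 3.47 array medians in the heroin rats (median 3.05) and from 1.44 to 3.72 in the saline rats (median 1.86), so the highest rat of all was a saline rat. The log2 change was 0.63 (SE 0.21, unadjusted limma p of 0.00806, adjusted p = 0.263). After quantile normalization it was 0.51 and still past both thresholds, where 0.853% of all probes rose past both. Gnai3, a like subunit, had 0.47 (adjusted p = 0.263) and Adcy3, an adenylyl cyclase, 0.39 (adjusted p = 0.263), and neither reached 1.4-fold. The median change of the 16 was 0.21, and −0.01 after quantile normalization.

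In the cortex Npy is made by interneurons, and 14 of 16 of their markers were tested. Vip, the vasoactive intestinal peptide gene of a separate interneuron class, was the 1 marker of the 14 past both thresholds, beside 1.79% of all probes that passed as higher in heroin. It ran from 82.6 to 116 array medians in heroin rats (median 98.9) and from 58.7 to 81.9 in saline rats (median 70.2), with no overlap, as was so for 1.66% of all probes. Its log2 change was 0.49 (SE 0.13, unadjusted limma p of 0.00208, adjusted p = 0.263), and 0.25 after quantile normalization, where it did not pass. Gad1, the GABA-synthesising enzyme, was at 0.38 (adjusted p = 0.263) and Reln, a matrix protein of layer 1 and other interneurons, at 0.34 (adjusted p = 0.280). Sst was at 0.21, and at −0.03 after quantile normalization. The median of the 14 was 0.20 and 0.01 in the 2 scalings, next to 0.18 and 0.01 for all probes.

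Markers of the cell types that the tissue block could hold were compared as well. None of the 4 excitatory neuron, 7 striatal, 6 oligodendrocyte, 6 astrocyte, 5 microglial or 4 endothelial and blood markers tested passed both thresholds by limma. Of all tested probes 2.72% did so. An unadjusted limma p under 0.05 was found for 1 of these markers, beside 4723 of the 25555 tested probes. The striatal list had a median log2 change of −0.06 and the oligodendrocyte list 0.00, both below the 0.18 of all probes, and −0.26 and −0.25 after quantile normalization. The summed signal of the 6 oligodendrocyte markers ran from 353 to 884 array medians in heroin and from 296 to 925 in saline. That of the striatal markers ran from 46.6 to 57.9 and from 39.3 to 90.3. Drd2, a defining striatal receptor, was detected on 8 arrays. The part of tissue composition in the values of Npy and its receptors was not tested, and in whole tissue fewer cells of a type and less RNA per cell cannot be told apart.

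**Figure D5:**
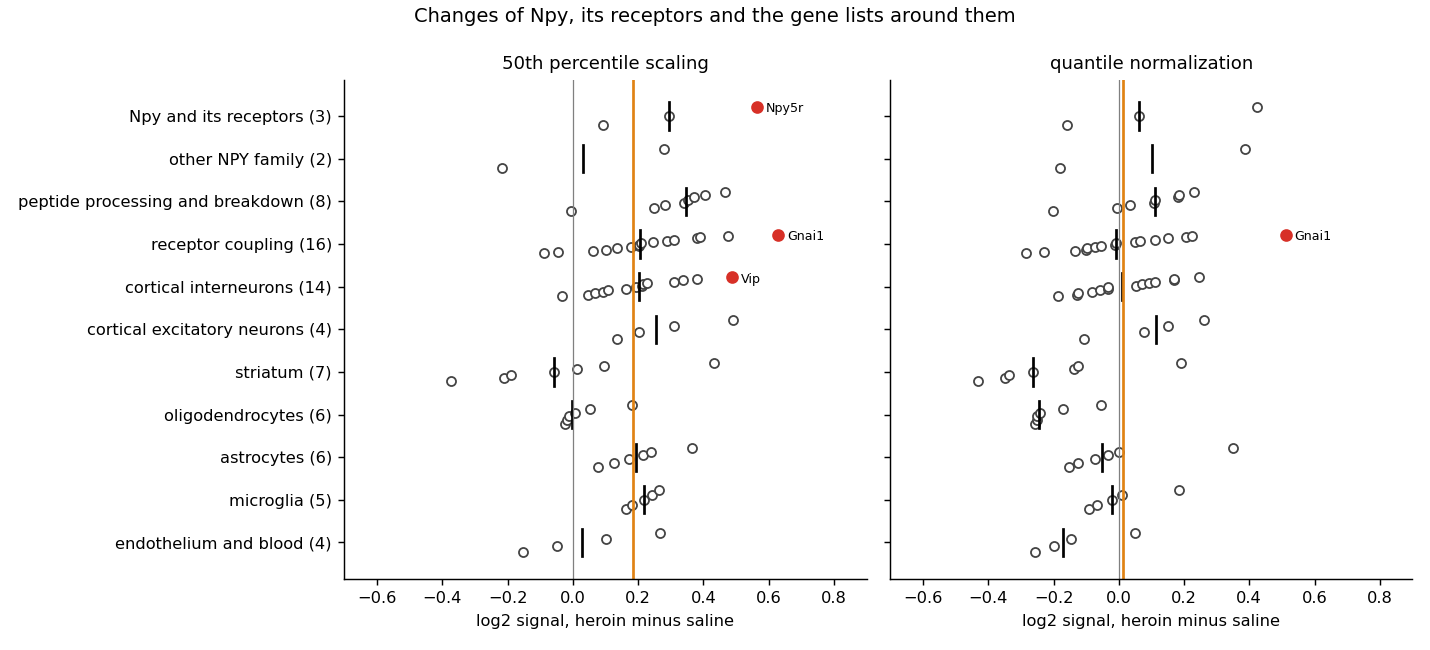
Log2 change, heroin minus saline, of each tested gene of 11 lists (number tested in brackets), with division by the array median on the left and after quantile normalization on the right; filled red points passed both thresholds, black bars are list medians and the orange line is the median of all tested probes. Npy5r, Gnai1 and Vip passed on the left and Gnai1 alone on the right.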

How the data were processed

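RNA of the medial prefrontal cortex was measured on Agilent 4 x 44 rat arrays, 1 rat per array. The authors deposited for each spot a background-subtracted signal intensity from the scanner software (Feature Extraction 9.5.1.1, as the headers state), not scaled between arrays, with flags for outlying, detected and saturated spots, which were also used. The authors also deposited a ratio per probe and rat (floor at 5, division by the array's 50th percentile and by the gene's median), used as an alternative. Genome positions are those of the files (build rn3).

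Here marked spots were left out, signals under 5 were set to 5, the spots of a probe were averaged on the log2 scale and the 50th percentile of the non-control probes of the array was the divisor. A probe was detected where at least 0.5 of its spots were well above background. The 25555 probes detected on all 11 arrays, with usable spots on at least 2 arrays per group, were tested with limma (version 3.58.1 in R 4.3.3, lmFit and eBayes, two-sided, Benjamini-Hochberg adjustment), with no covariate. The thresholds were those of the study's methods, an unadjusted p under 0.02 and at least 1.4-fold, with limma in place of the methods' one-way test with unequal variances. That test, which for 2 groups equals a t-test with unequal variances, was run as an alternative and is called the methods' t-test. Npy2r failed the detection filter, so it was fitted over all usable probes, a choice made after its detection was seen. Single values and within-array differences were tested by exact permutation over rats, two-sided, and correlations with 100000 permutations (Python 3.11.15, SciPy 1.17.1). The limma fit was tested on simulated data.

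The genes are all probes named Npy, Npy1r, Npy2r or Npy5r. The main probe of a gene is the one in the study's list (Npy5r), otherwise the brightest. From each gene list, those past both thresholds and the 3 largest changes were named where they served a comparison, along with Actb, Sst and the 3 probes most like each gene, of which some are not reported here. The members and lists were chosen with earlier results of these data known. List genes were matched by the files' names, and older names through RefSeq accessions. Precision is set by the number of arrays. Same-numbered arrays shared a scan time, taken as a slide, and their deviations from the group means correlated above 0.1 in 2 of 5 pairs (r from −0.24 to 0.38), and in 3 of 5 after quantile normalization (r from −0.27 to 0.37), so no block was used in the main test. All arrays were scanned on 1 day. No column of other samples was used.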

Additional observations from a re-analysis of the deposited data

Results flagged for a closer look

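In 3 of the 22 sets of values examined (5 probes and 6 within-array differences, each in both groups), 1 rat lay far from the rest of its group by Dixon's test, and it was heroin replicate 6 each time. Chance gives about 1 in 20 separate sets, but these sets share probes, and the flagged difference is that of the 2 flagged probes, so the 3 count as 1 rat's deviation. Its Npy5r signal was 4.92 array medians, the highest of the heroin group, with the next at 3.04. Its Npy1r signal at the main probe was 5.64 array medians, the lowest of the group, with the next at 9.73. Its Npy1r minus Npy5r difference was 0.197 on the log2 scale, with the next at 1.74. This rat had the lowest array median (42.7) and the fewest detected probes (28185) of the 11 arrays, and the part of array brightness in these values was not tested.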

How the results depend on the processing

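With 6 and 5 rats, 1 spot per array for each receptor and no probe past an adjusted p of 0.05 in the main test, only the direction and the order of these changes can be compared. The main Npy1r probe stayed above 0 in 31 of 31 alternatives (the second was below 0 in 29 of 30, at 0.075 without saline replicate 2), Npy5r above 0 in 31 of 31 and Npy2r below 0 in 29 of 29. Many alternatives could not move the log2 change. Those that change only the detection filter or the test returned the value of the main test. The replicate block gave the same value as leaving out heroin replicate 1. The tallies here and for Npy below therefore hold fewer separate checks than alternatives. Npy turned below 0 in 7 of 31, at −0.12 (75th percentile), −0.16 (quantile normalization), −0.10 (median of detected probes), −0.14 (relative to Actb), −0.17 (GC-dependent deviations removed), −0.13 (normexp with quantile normalization) and −0.13 (replicate block after quantile normalization, added after the data were seen). Npy5r lost its call at 0.35 (75th percentile), 0.42 (quantile normalization), 0.37 (median of detected probes), 0.33 (relative to Actb), 0.30 (GC removal), 0.38 (normexp), 0.29 (normexp with quantile normalization) and 0.44 (replicate block after quantile normalization). The adjusted p of Npy5r ranged from 0.0203 (array weights) to 0.977 (relative to Actb). With array weights 7862 of the 25555 tested probes had an adjusted p under 0.05. Npy1r gained a call at 0.54 with array weights (adjusted p = 0.0238, range over its alternatives 0.0238 to 0.999) and Npy2r at −0.81 relative to Actb. Leaving out each rat gave 0.025 (without saline replicate 2) to 0.22 (without saline replicate 5) for Npy, 0.19 (without saline replicate 3) to 0.45 (without heroin replicate 6) for Npy1r, 0.43 to 0.63 for Npy5r and −0.74 to −0.44 for Npy2r. Causes were not tested.

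With the replicate number, here the slide inferred from scan times, as a replicate block, the log2 changes were 0.11 for Npy, 0.28 for Npy1r, −0.60 for Npy2r and 0.57 for Npy5r, and no call of the 4 changed. The number of probes past both thresholds went from 694 to 805 with the block. It was 457 after quantile normalization, 126 with normexp, 41 with normexp and quantile normalization, 1560 with no detection filter, 1067 with detection in 1 group, 1216 with positive and significant signal, 308 by the methods' t-test (0 after Benjamini-Hochberg), 2380 with array weights, 410 with the block after quantile normalization, and 343 to 2352 when 1 rat was left out (343 without saline replicate 2, 393 without saline replicate 3, 2352 without saline replicate 5). At the 75th percentile 33 rose and 746 fell, against 457 and 237 in the main test, 218 and 239 after quantile normalization and 42 and 633 at the median of detected probes.

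Within arrays, the paired values with the replicate block were −0.46 for Npy minus Npy5r, 0.88 for Npy1r minus Npy2r and −1.17 for Npy2r minus Npy5r, each at the smallest p that 5 slides allow, 0.0625. Npy minus Npy5r was −0.30 with normexp, and Npy1r minus Npy2r was 0.59 after quantile normalization and 0.48 with normexp. With normexp Npy2r minus Npy5r was −0.63 and Npy minus Npy2r 0.33 (0.37 after quantile normalization). An exact p under 0.05 was lost in 10 of 15 alternatives for Npy1r minus Npy2r and in 6 of 15 for Npy2r minus Npy5r. Leaving out each rat gave −0.41 to −0.071 for Npy minus Npy1r, 0.48 to 0.95 for Npy minus Npy2r, 0.72 to 1.13 for Npy1r minus Npy2r, −0.36 to 0.018 for Npy1r minus Npy5r (0.018 without heroin replicate 6) and −1.36 to −0.87 for Npy2r minus Npy5r.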
